A study of Mus musculus with 3 samples.

Results

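The chemokine ligand genes of the mouse larynx are described here across the cell classes of tdTomato-sorted cells. They were taken by symbol: every feature named Ccl or Cxcl with a number, and Cx3cl1 and Xcl1, which gave 39 of 33696 features. UMIs (unique molecular identifiers, each standing for a captured RNA molecule) were counted for 38 of the 39, and Ccl27b had 0. The cells came from Lrig1CreERT2/+; ROSA LSL-tdTomato/+ mice, in which a tamoxifen-activated Cre recombinase made from 1 allele of Lrig1 switches on the red reporter, and were collected 24 h after recombination. Each of the 3 single-cell RNA libraries held the dissociated larynges of 10 mice, 5 male and 5 female, pooled before sorting, so that every library had the same genotype and treatment and no library was an uninjected or unsorted control. A cell entered the sort by its reporter and not by its Lrig1 RNA at collection, the animals within a pool could not be separated, and the features held neither tdTomato nor Cre, so that the sort itself could not be checked. Libraries were the replicates (n = 3), and p-values measured only the spread between these pools.

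Chemokines are small secreted proteins that guide migrating cells along gradients by binding G protein-coupled receptors. Homeostatic chemokines such as Cxcl12, Ccl19 and Ccl21 are made in resting tissue and place leukocytes and progenitor cells, whereas inducible chemokines such as Cxcl1, Cxcl2 and Ccl20 are switched on by injury and microbial products, in large part through NF-kB. Most bind the sugar chains of the extracellular matrix after secretion, and Cx3cl1 and Cxcl16 are made as membrane-tethered proteins that can be cut from the surface. In airways, epithelium, fibroblasts, lymphatic vessels and resident macrophages are all known sources.

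The promoters of Cxcl1, Cxcl2, Cxcl3 and Ccl20 are shown because these inducible ligands share a motif there, and because Cxcl1 and Cxcl2 were counted more often in epithelial cells with Ccl20, as described further on. Each line gives the 250 bases before the start site, from RefSeq (GRCm38.p6, plus strand, a build other than that of the counts), and capitals mark GGG and TTTCC with any 2 bases between them, a common form of NF-kB sites, searched on both strands. This motif was in 447 of the 27025 promoters searched (1.65%) and in 5 of the 28 ligands among them, these 4 and Ccl9. The exact string GGGAATTTCC, the form that most of these 4 share, was in 28 promoters (0.104%), of which 3 were Cxcl1, Cxcl2 and Cxcl3. That these 3 hold it follows from the choice of the string. Such a match is a description and not a shown binding site.
Cxcl1 (chr5:90890995-90891244): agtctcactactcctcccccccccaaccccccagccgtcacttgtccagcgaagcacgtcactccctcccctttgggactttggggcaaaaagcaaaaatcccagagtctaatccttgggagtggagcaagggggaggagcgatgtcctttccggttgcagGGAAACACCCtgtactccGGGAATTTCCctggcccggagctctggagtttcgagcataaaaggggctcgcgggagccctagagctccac
Cxcl2 (chr5:90903649-90903898): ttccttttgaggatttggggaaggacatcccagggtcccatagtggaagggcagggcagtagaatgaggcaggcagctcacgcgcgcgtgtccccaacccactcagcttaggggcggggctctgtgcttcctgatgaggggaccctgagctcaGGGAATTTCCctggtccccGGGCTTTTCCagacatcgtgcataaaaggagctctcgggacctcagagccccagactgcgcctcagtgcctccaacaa
Cxcl3 (chr5:90785851-90786100): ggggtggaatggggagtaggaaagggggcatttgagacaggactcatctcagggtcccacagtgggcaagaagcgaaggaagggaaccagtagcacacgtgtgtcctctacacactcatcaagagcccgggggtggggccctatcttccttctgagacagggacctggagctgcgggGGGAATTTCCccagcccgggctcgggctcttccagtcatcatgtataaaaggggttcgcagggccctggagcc
Ccl20 (chr1:83116516-83116765): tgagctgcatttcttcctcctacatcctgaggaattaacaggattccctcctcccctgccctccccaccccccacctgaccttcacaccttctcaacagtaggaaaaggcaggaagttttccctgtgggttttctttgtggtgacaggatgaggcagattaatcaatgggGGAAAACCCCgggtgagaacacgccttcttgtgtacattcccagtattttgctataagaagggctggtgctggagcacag

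The libraries held 18068, 10816 and 31646 barcodes with 147898790 to 413632222 UMIs, and 13222, 7201 and 24119 cells remained after quality limits and removal of doublet-like barcodes. Median depth was 10400 to 14233 UMIs per kept cell, and the library pairs shared 46, 165 and 96 barcodes. A cell joined a class when it held at least 4 UMIs over at least 3 of that class's markers and passed no other class's gate. The classes held 30084 epithelial, 4234 fibroblast, 550 endothelial, 2462 muscle and 148 macrophage cells, 84.1% of the 44542 kept cells, and 32 of 32 gate markers had their highest level in their own class. Library 2 gave only 27 endothelial cells and library 3 only 26 macrophages, so levels in those sums rest on few cells. Library 3 held 1258 of the 1306 cells that passed the epithelial and the fibroblast gate at once. Those cells were in no class and were absent from the class levels below. They do count in the UMI shares of all kept cells and in the comparison of all Lrig1+ with all Lrig1- cells. Levels are counts per 1000000 UMIs of the class in a library (CPM). In such sums, fewer expressing cells and less RNA per cell cannot be told apart.

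The 39 ligands summed to 234421 UMIs in kept cells, and 93.6% of these fell in the 5 classes. Macrophages had the highest summed ligand level at 3919 ± 1479 CPM, followed by endothelial cells at 3120 ± 1216 and fibroblasts at 1469 ± 146 (mean ± SD, n = 3 libraries). Epithelial cells reached 295 ± 85.7 CPM and muscle cells 218 ± 40.9 CPM. The epithelial and muscle values lay below every fibroblast value by several SDs, while the macrophage and endothelial means differed by less than the SD of either.

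A level of at least 10 CPM in some class in at least 2 libraries was reached by 24 ligands, with 188 to 53322 UMIs each, and these are described one by one. By mean level, the leading class was macrophage for 14 of the 24, fibroblast for 4, epithelial for 3, muscle for 2 and endothelial for 1. No share over all genes stands beside these counts, so they are no result about chemokines. The 10 CPM rule also favours small sums. In macrophages of libraries 2 and 3, 3 UMIs made 9.96 and 14.4 CPM, but in epithelium at most 0.0315 CPM. The other 15 ligands held 0 to 2842 UMIs, 9 of them under 100.

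**Figure D1:**
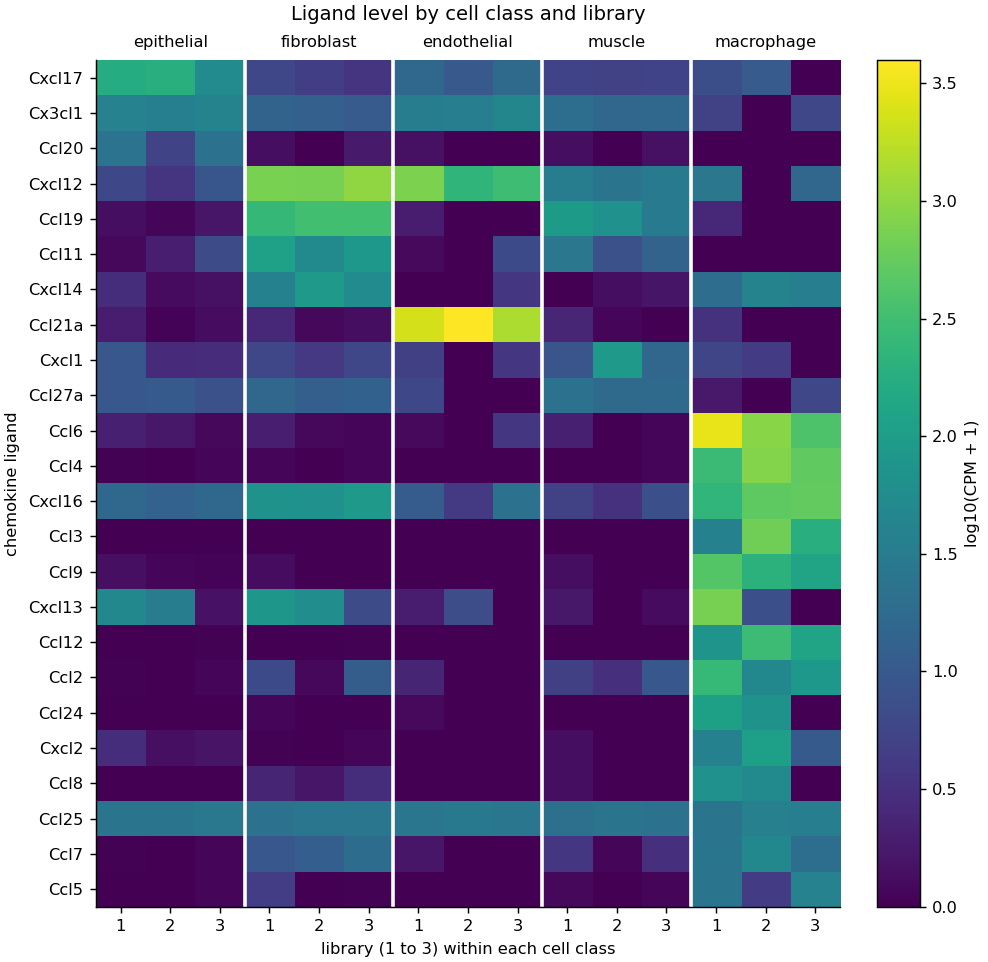
Level of each of the 24 ligands (y axis) in every library of the 5 cell classes (x axis, libraries 1 to 3 within a class), coloured by log10(CPM + 1). Ccl21a is bright only in the endothelial columns (1444 to 3970 CPM), Cxcl12 in the fibroblast and endothelial columns, and Ccl25 has nearly the same colour throughout.

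A ligand was counted as having a separated main source when the class of highest mean level was higher than each of the other 4 classes in edgeR's quasi-likelihood test (Benjamini-Hochberg adjusted p under 0.05, two-sided, fitted to the sums of all genes). Of 15884 genes tested, 37.4% met this, and so did 17 of the 27 ligands tested. Macrophages were the separated source of 11 ligands (Ccl2, Ccl3, Ccl4, Ccl5, Ccl6, Ccl8, Ccl9, Ccl12, Cxcl2, Cxcl10 and Cxcl16), against 9.54% of all genes. The epithelium was the source of 3 (Ccl20, Cxcl15 and Cxcl17; 10.4% of all genes), fibroblasts of 2 (Ccl11 and Ccl19; 7.12%), endothelium of 1 (Ccl21a; 5.21%) and muscle of 0 (5.19%). None of these shares was tested against the share of all genes. Ccl3, Ccl4 and Ccl12, almost absent from the other classes, entered the test through macrophages, so the macrophage count follows in part from the filter on counts. The same limit holds for Ccl6 and Ccl9 and, through the endothelium, for Ccl21a. Cxcl2 was compared among these classes only, without the cells of the neutrophil gate. With the library as a block, 18 ligands were separated, Cxcl12 being added. Leaving out library 1, which held 87 of the 148 macrophages and 481 of the 550 endothelial cells, left 11 ligands and 2800 genes.

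Cxcl12, the ligand of Cxcr4 that retains stem cells and leukocytes in their niches, had its highest level in fibroblasts at 757, 726 and 996 CPM in libraries 1 to 3. Endothelial cells held 785, 228 and 301 CPM, muscle cells 32.2, 23.0 and 29.6 CPM, and epithelial cells 2.60 to 8.04 CPM. Fibroblasts were higher than endothelium in libraries 2 and 3 and slightly lower in library 1. The difference between fibroblasts and endothelium was 0.93 ± 0.46 (log2, SE) with an edgeR adjusted p of 0.130. It was 1.07 with an adjusted p of 0.0283 once the library was a block, and 1.79 with an adjusted p of 0.0368 without library 1. Cxcl12 UMIs were found in 76.3% ± 3.88 of fibroblasts (SD, n = 3, median depth 10413 UMIs) against 5.94% ± 2.81 of the deeper epithelial cells (14560 UMIs). The gene lies at chr6:117144945-117158328 on the plus strand (GRCm39).

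Ccl19, which attracts dendritic cells and naive T cells through Ccr7, was a fibroblast ligand in every library. Its fibroblast level was 249, 324 and 317 CPM, its muscle level 90.4, 64.4 and 30.1 CPM, and its epithelial level at most 0.662 CPM. All fibroblast values lay above all muscle values, by 2.27 ± 0.37 (log2, SE; edgeR adjusted p = 0.000155). It was counted in 69.0% ± 5.54 of fibroblasts and in 0.593% ± 0.314 of epithelial cells (SD, n = 3). In cells thinned to 5000 UMIs, Ccl19 was detected in 58.2%, 61.1% and 63.6% of fibroblasts with a Cxcl12 UMI and in 38.9%, 49.6% and 43.6% of those without, the former being higher in 3 of 3 libraries. Ccl19 lies at chr4:42754525-42756577 and Ccl21a at chr4:42772859-42773995, both on the minus strand of GRCm39.

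Ccl11, the eosinophil attractant eotaxin that acts on Ccr3, was at 114, 51.6 and 81.3 CPM in fibroblasts and at 25.5, 6.80 and 13.2 CPM in muscle cells. The groups did not overlap, and fibroblasts were higher by 2.49 ± 0.82 (log2, SE; edgeR adjusted p = 0.0265). Without library 2 the difference was 2.41 with an adjusted p of 0.113, and without library 1 fibroblasts were no longer separated from every other class. Unlike Cxcl12 and Ccl19, it came from few cells, with a UMI in 8.80% ± 2.56 of fibroblasts (SD, n = 3). Cxcl14, a homeostatic ligand of skin and mucosa, was at 37.6, 84.2 and 52.8 CPM in fibroblasts and at 18.1, 39.8 and 33.6 CPM in macrophages. These ranges overlapped, and the difference of 1.01 ± 0.70 (log2, SE) did not pass (edgeR adjusted p = 0.260). Cxcl14 UMIs were in 6.23% ± 0.662 of fibroblasts.

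Fibroblasts were also parted by a UMI of Hhip, Wnt16 or Col23a1, which mark a fibroblast set of these libraries, as a description chosen after the values were seen. The 1580, 321 and 1422 cells with such a UMI held Ccl11 at 58.9, 29.0 and 46.5 CPM, and the 528, 65 and 318 cells without held it at 286, 170 and 248 CPM. Cxcl13 parted the same way, at 29.9, 1.26 and 5.28 CPM against 235, 346 and 8.66 CPM. This rests on few cells, since among those without a marker UMI it was found in 7.69% of 65 cells in library 2 (262 UMIs) and in 1.57% of 318 cells in library 3 (26 UMIs). Ccl19 did not part this way, at 267, 320 and 322 CPM against 192, 345 and 292 CPM. For Cxcl12 the cells with a marker UMI were higher in 3 of 3 libraries, at 806, 734 and 1054 CPM against 604, 681 and 719 CPM.

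**Figure D2:**
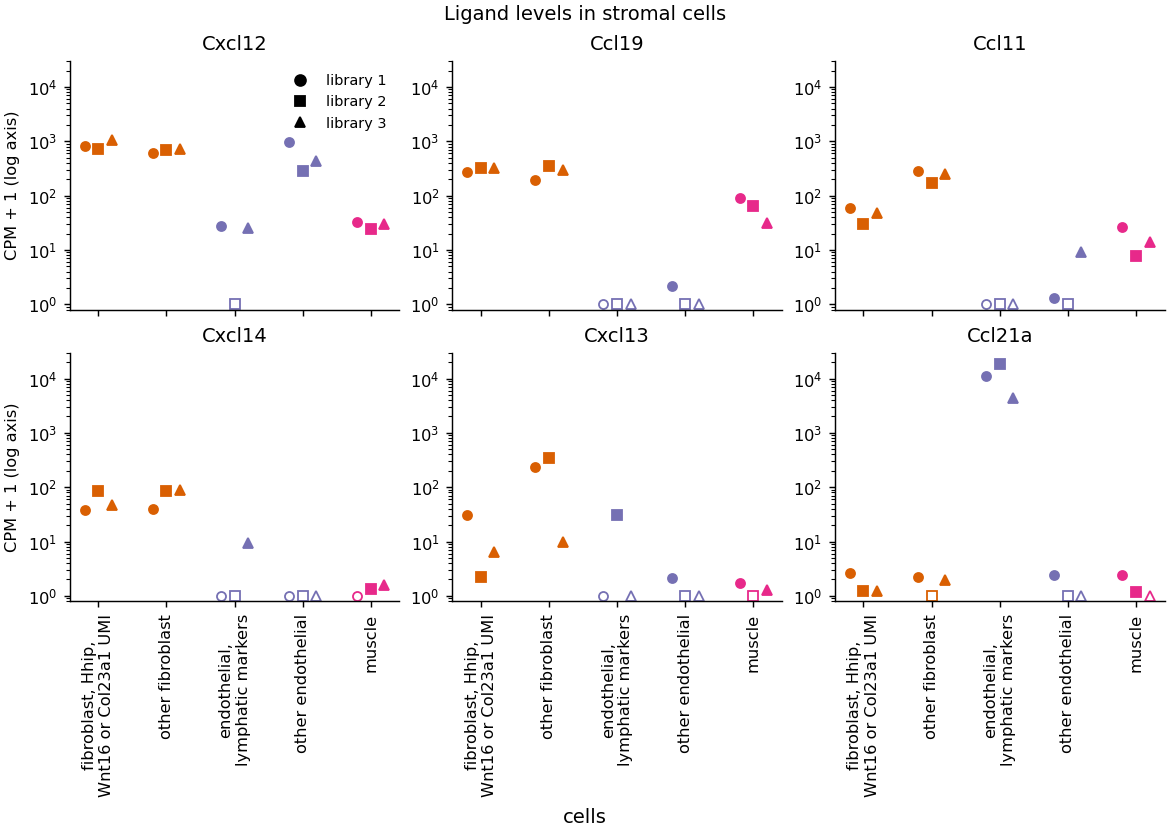
Levels of ligands in stromal cells as CPM + 1 on a log axis, with 1 point per library: fibroblasts with and without a UMI of Hhip, Wnt16 or Col23a1, endothelial cells with and without the lymphatic markers, and muscle cells. Ccl21a reaches 4360 to 18800 CPM in lymphatic-marker cells and at most 1.42 CPM in the other endothelial cells, while Cxcl12 has the opposite order.

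Muscle-class cells carried Ccl19 at 36.4%, 19.9% and 9.50% of the fibroblast level of the same library. For Cxcl12 these shares were 4.26%, 3.16% and 2.97%, and for Ccl11 22.4%, 13.2% and 16.2%. Of the fibroblast gate markers, Pdgfra, Lum, Col1a2 and Col6a3 stood at 0% to 2.51% of their fibroblast level in muscle cells. Dcn stood at 6.10% to 27.6% and Col5a1 at 25.8% to 31.8%. The part of fibroblast RNA in the muscle values was not tested.

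Ccl21a, the lymphatic vessel ligand of Ccr7, was the endothelial chemokine of the series at 2309, 3970 and 1444 CPM. Its mean in each other class was under 1 CPM, and endothelium exceeded epithelium by 12.38 ± 0.93 (log2, SE; edgeR adjusted p = 2.94e-08). Being so low elsewhere, Ccl21a entered this test through the endothelium, and the call follows in part from the filter on counts. Only 71 of the 550 endothelial cells held a Ccl21a UMI, and 1 cell held 12.3% of its 12079 endothelial UMIs. Endothelial cells with UMIs of lymphatic markers (107, 7 and 15 cells) held it at 11010, 18800 and 4360 CPM, and the other endothelial cells at 1.42, 0 and 0 CPM. The near-identical copies Ccl21b and Ccl21d held 2 and 21 UMIs, and reads that match several copies can be dropped or split by the counting, so the levels of the 3 genes are uncertain against each other. Cxcl12 had the opposite order within the endothelium. It was at 986, 289 and 438 CPM in the cells without lymphatic markers and at 26.8, 0 and 24.8 CPM (25, 0 and 3 UMIs) in those with them, where a count of 0 in library 2 allows up to 43.8 CPM. For Cx3cl1 the same cells gave 39.9, 39.1 and 61.5 CPM against 2.15, 14.6 and 8.27 CPM, the latter from 2, 1 and 1 UMIs, and in library 2 this depth shows no order.

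Cxcl17, a mucosal chemokine of airway and gut epithelium, held more UMIs than any other ligand and was at 170, 186 and 54.0 CPM in epithelial cells. Library 3 stood below the others by level and by share of cells with a UMI (41.9%, 51.9% and 23.7%). Endothelial cells came next at 13.7 ± 3.92 CPM (SD, n = 3), lower than epithelium by 3.27 ± 0.48 (log2, SE; edgeR adjusted p = 3.55e-05). Fibroblasts, at a depth of 10413 UMIs, held a Cxcl17 UMI in 3.93% ± 1.31 of cells. The gene lies at chr7:25099478-25112457 on the minus strand of GRCm39.

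Within the epithelium, sub-gates of the same size divided the cells by markers of basal, squamous, secretory, gland, ciliated and neuroendocrine cells. Cxcl17 was at 732, 724 and 560 CPM in ciliated cells and at 451, 711 and 392 CPM in secretory cells. Cells with secretory and ciliated markers held 769, 1005 and 530 CPM. The few cells of the squamous sub-gate alone held 1333 and 441 CPM in libraries 2 and 3. Basal cells held 94.9, 114 and 19.97 CPM, below all of these values. The classes at hand for testing were the cells of a single sub-gate: 3393, 3289 and 8668 basal, 298, 99 and 200 secretory, and 13 and 27 squamous cells in libraries 2 and 3 (library 1 had 3 squamous cells and gave no sum). Ciliated cells were not in that test, nor were the 5834 cells that passed the basal and the secretory sub-gate together. The latter averaged 2.67 CPM of Ccl28, 5.54 of Cxcl15, 2.27 of Cxcl5 and 130 of Cxcl17. Basal cells averaged 1.08, 3.09, 3.43 and 76.4 CPM of these ligands.

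Between basal and secretory cells, 6 of 13 ligands tested were lower in basal cells and 0 were higher, where 18.2% of 12927 genes were lower and 17.8% higher. A ligand low in basal cells, such as Ccl28, could enter this test only through the other sub-gates. These counts therefore follow in part from the filter on counts. With the library as a block, Cxcl12 was also called, as higher in basal cells (unblocked log2 difference 0.89 ± 0.54, edgeR adjusted p = 0.229, blocked 0.0484). Without TMM scaling, 78.3% of the genes called in this contrast were higher in basal cells in place of 49.4%, and the median over all genes moved from 0.07 to 0.40. Ccl28, a mucosal ligand of Ccr10, was at 1.03, 0.733 and 1.48 CPM in basal cells and at 40.6, 22.2 and 38.6 CPM in secretory cells, lower in basal cells by 5.29 ± 0.36 (log2, SE; edgeR adjusted p = 1.94e-06). Cxcl15, a neutrophil attractant known from mouse airway, was at 2.92, 3.75 and 2.59 CPM against 32.3, 21.2 and 138 CPM, a log2 difference of -4.69 ± 0.57 (edgeR adjusted p = 0.000119). The groups did not overlap for either ligand. Cxcl17 differed by -3.09 ± 0.62 (edgeR adjusted p = 0.00289) and Cxcl5, which acts on neutrophils through Cxcr2, by -3.34 ± 0.68 (adjusted p = 0.00328). Cxcl16 (-0.76, edgeR adjusted p = 0.0107) and Cxcl2 (-2.84, adjusted p = 0.0430) also passed, Cxcl16 not without TMM scaling (adjusted p = 0.0840) or library 1 (0.0607) and Cxcl2 not in DESeq2 (0.0796) or without library 2 (0.0950). The Cxcl2 value rests on 27 UMIs of 1 secretory cell in library 1, since secretory cells of libraries 2 and 3 held 1 and 0.

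Cells that passed the secretory and the gland sub-gate together held Ccl28 at 51.9, 90.1 and 60.7 CPM and Cxcl15 at 47.7, 80.9 and 47.7 CPM. Ciliated cells held Ccl28 at 15.3, 32.8 and 25.2 CPM. In all epithelial cells together, Ccl28 averaged 4.30 ± 1.09 CPM and Cxcl15 5.70 CPM, so that both stayed under the 10 CPM that named a ligand at class level. Cxcl15 was nevertheless separated from fibroblasts by 3.42 ± 0.53 (log2, SE; edgeR adjusted p = 0.000166), a call lost without library 1.

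Cxcl16, the membrane-tethered ligand of Cxcr6, had its highest epithelial level in cells of the squamous sub-gate alone, at 119 and 63.4 CPM in libraries 2 and 3. These few cells are the squamous cells of this paragraph. Basal cells held 15.3, 12.2 and 14.3 CPM, and ciliated cells 0.464, 0.829 and 0.587 CPM, from 1 or 2 UMIs in each library. The 36 and 20 cells of the neuroendocrine sub-gate alone had 0 UMIs, which allows up to 4.24 and 6.19 CPM. Against squamous cells, basal cells had 4 of 13 ligands lower and 0 higher, where 9.83% of genes were lower and 8.76% higher. These counts too follow in part from the filter on counts, since Ccl6 and Ccl28 were low in basal cells. Without TMM scaling, 57.4% of the genes called in this contrast were higher in basal cells in place of 47.1%. Cxcl16 differed by -2.77 ± 0.28 (log2, SE; edgeR adjusted p = 9.09e-05), and Cxcl17 (-3.62), Ccl6 (-7.17) and Ccl28 (-3.53, adjusted p = 0.0472) passed as well. Squamous cells exceeded secretory cells in 2 ligands, Cxcl16 by 2.00 ± 0.29 (edgeR adjusted p = 0.00275) and Ccl6 by 5.02 ± 1.28 (adjusted p = 0.0376), where 4.81% of genes were higher, and were lower in 0, where 3.67% were lower. Without TMM scaling, 77.0% of the genes called there were higher in squamous cells in place of 56.7%. The squamous sums were small: Ccl6 had 21 and 4 UMIs there, and Ccl28 had 0 and 7 UMIs, the latter in 1 cell. Most cells with squamous markers also passed the basal sub-gate and were in neither sum. The 2600 cells of the basal and squamous sub-gates together averaged 18.2 CPM of Cxcl16, 72.8 of Cxcl17 and 0.257 of Ccl6. Basal cells averaged 13.9, 76.4 and 0.381 CPM, so the higher levels were not shared by these 2600 cells. Without library 2, Cxcl17 and Ccl6 against basal cells (edgeR adjusted p = 0.0568 and 0.186) and Cxcl16 and Ccl6 against secretory cells (0.0526 and 0.408) did not pass. That fit has 1 squamous library, which is assumed to vary like the other groups.

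**Figure D3:**
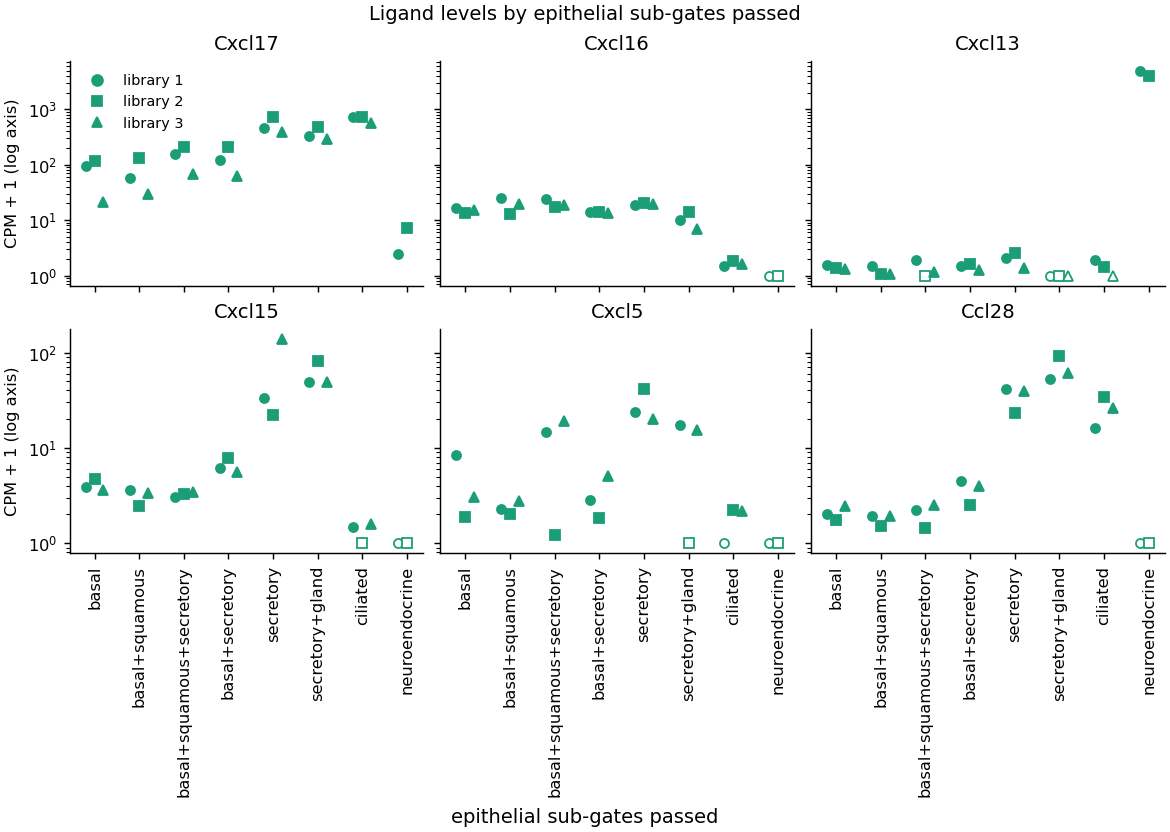
Levels of epithelial ligands by the sub-gates a cell passed, as CPM + 1 on a log axis with 1 point per library. Cxcl17 is higher in ciliated and secretory than in basal cells, Cxcl16 is near 1 on this axis in ciliated cells, and Ccl28 and Cxcl15 rise from basal cells to cells with secretory or secretory and gland markers.

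Cx3cl1, the tethered fractalkine that binds Cx3cr1, was level between epithelium and endothelium. Epithelial cells held 39.0, 34.6 and 40.0 CPM and endothelial cells 32.0, 33.9 and 43.8 CPM. These ranges overlapped, and the difference was 0.19 ± 0.21 (log2, SE; edgeR adjusted p = 0.510). Muscle cells followed at 18.9, 14.6 and 15.1 CPM and fibroblasts at 12.8, 11.9 and 9.83 CPM. Within the epithelium, Cx3cl1 was at 43.6, 35.8 and 44.6 CPM in basal cells and at 13.5, 12.0 and 11.2 CPM in ciliated cells, the reverse of the order of Cxcl17.

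Ccl20, the ligand of Ccr6, was at 22.3, 4.42 and 21.6 CPM in epithelial cells, library 2 being lowest. Its next class, fibroblasts, averaged 0.382 CPM, a difference of 5.09 ± 0.71 (log2, SE; edgeR adjusted p = 2.83e-05) that no longer separated the epithelium from every class without library 1 or without library 3. Few cells carried it. A UMI was in 4.28% ± 2.17 of epithelial cells and in 0.376% ± 0.374 of fibroblasts, and the 446 kept cells with the most Ccl20 UMIs, 1% of all, held 81.1% of them. Epithelial cells with at least 3 Ccl20 UMIs, a limit chosen after the values were seen, numbered 113, 40 and 279 and held 92.6%, 74.6% and 80.9% of the epithelial Ccl20.

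The neutrophil attractants Cxcl1 and Cxcl2 were found more often in cells with Ccl20 after every epithelial cell was thinned to 5000 UMIs. Cxcl1 was in 20.4%, 4.92% and 3.22% of the Ccl20-positive cells and in 0.870%, 0.497% and 0.414% of the others. The first of these shares came from 30 of 147 cells (95% Wilson interval 14.7 to 27.6%) and that of library 2 from 3 of 61 cells (1.69 to 13.5%); such intervals cover counting error only. Cxcl2 was in 9.52%, 3.28% and 1.61% (14 of 147, 2 of 61 and 11 of 684 cells) against 0.0633%, 0.124% and 0.250%. Both shares were higher in Ccl20-positive cells in 3 of 3 libraries, in library 2 from only 3 and 2 cells (0.904 to 11.2% for Cxcl2). Cxcl3 was rarer still, in 1 of 147, 0 of 61 and 7 of 684 Ccl20-positive cells (0.680%, 0% and 1.02%) against 0.0316%, 0.0414% and 0.138% of the others. Cx3cl1 was higher in 3 of 3 libraries as well, at 27.9%, 26.2% and 25.1% against 18.0%, 15.7% and 18.3%. Cxcl17 was not, at 22.5%, 26.2% and 13.7% against 30.4%, 35.3% and 14.5%. The neutrophil attractants Cxcl5 (4.76%, 0% and 3.51% against 1.01%, 0.435% and 0.992%) and Cxcl15 (4.08%, 0% and 3.22% against 2.17%, 1.32% and 1.60%) were higher in libraries 1 and 3 only. In library 2 each was in 0 of 61 Ccl20-positive cells, which allows up to 5.92%. Ccl28 had no shared direction, at 1.36%, 1.64% and 1.61% against 1.95%, 1.30% and 1.41%.

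The cells with at least 3 Ccl20 UMIs were set beside the cells with none over lists of genes. Of the NF-kB and cytokine induction list, 13 of 13 members at 1 CPM or more were higher in all 3 libraries, with a median ratio of 4.45, where 16.5% of 14384 genes were higher in all 3 and the median ratio was 0.960. Tnfaip2 was at 445, 180 and 269 CPM against 14.8, 11.7 and 15.8 CPM, and the NF-kB inhibitor gene Nfkbia at 851, 794 and 567 CPM against 164, 184 and 134 CPM. Among dissociation-response genes such as Fos and Jun, 15 of 18 were higher, with a median ratio of 1.65. Of the interferon-induced list, 1 of 12 was higher and 7 were lower in all 3 libraries (median ratio 0.537), where 27.5% of all genes were lower. Cells with many Ccl20 UMIs were also deeper, with medians of 17988, 18992 and 18292 UMIs against 14834, 18221 and 13385, and the part of depth and dissociation in these lists was not tested.

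Cxcl1 had its highest class mean in muscle cells, at 7.83, 85.8 and 14.6 CPM. Library 2 stood far above the others, and the fibroblast mean was 4.21 CPM, lower than muscle by 3.06 ± 0.80 (log2, SE; edgeR adjusted p = 0.00610). Without library 2 the difference was 1.13 (adjusted p = 0.228), and against macrophages muscle did not pass (adjusted p = 0.0745). In muscle cells of library 2, 18 of 18 dissociation-response genes were also at their highest, with a median ratio of 8.17 to the mean of the other libraries, against 0.928 to 1.88 in the other 4 classes. Fos, for example, was at 274, 5614 and 329 CPM. Their part in the Cxcl1 level was not tested.

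Cxcl13, which places B cells in follicles through Cxcr5, was counted mainly in epithelial cells and fibroblasts, and in macrophages largely from 1 cell. Macrophages led by mean level only through library 1 (729, 6.64 and 0 CPM), where 1 cell held 673 of the 928 macrophage UMIs. Fibroblasts held 79.4, 56.5 and 5.86 CPM. By UMIs, epithelial cells were the main source, and within them the cells passing the neuroendocrine sub-gate, alone or with others, held 3890 and 4977 CPM in libraries 1 and 2. These were 60 and 24 cells with 64.1% and 90.4% of each library's Cxcl13 UMIs, and library 3 had 0 such cells, a count that allows up to 3. A Cxcl13 UMI was in 75.0% of them in library 1 (Wilson interval 62.8 to 84.2%) and in 87.5% in library 2 (69.0 to 95.7%). All other epithelial cells held it at 0.620, 0.328 and 0.512 CPM. Among the genes that chose these cells, Calca, the calcitonin gene, was at 9705 and 6469 CPM and Chga, which encodes a protein of secretory granules, at 2069 and 2521 CPM, levels that follow from the choice. Tg, the thyroid gene of thyroglobulin and no part of the gate, had a UMI in 3 of the 60 and 2 of the 24 cells, with 627 and 2 UMIs. All other epithelial cells held Tg at 206, 199 and 16.4 CPM, lowest in library 3, which had none of these cells, and the part of thyroid tissue was not tested. Cxcl13 lies at chr5:96104810-96108927 on the plus strand of GRCm39.

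Macrophages held the widest set of ligands, led by Ccl6 at 3001, 913 and 393 CPM. Ccl6 and Ccl9 are mouse CC chemokines that bind Ccr1, and Ccl9 was at 436, 206 and 125 CPM. Library 1 was highest for both, and every macrophage value exceeded every value of the other classes. Ccl9 was above epithelium by 10.58 ± 0.70 (log2, SE; edgeR adjusted p = 3.10e-08) and Ccl6 above endothelium by 12.04 ± 1.41 (adjusted p = 5.55e-06). Both ligands could pass the filter on counts through macrophages alone, so these calls follow in part from that filter. Of the Ccl6 UMIs of all kept cells, 68.6% lay in the 148 macrophages.

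Ccl3 and Ccl4, inflammatory CC chemokines, were at 37.0, 654 and 177 CPM and at 280, 846 and 532 CPM. Both were highest in library 2, whereas Ccl6 and Ccl9 were highest in library 1. Single cells weighed in these levels, since 1 macrophage held 109 of the 281 Ccl3 UMIs of the class and 1 held 130 of the 722 of Ccl4. Ccl12, a ligand of Ccr2, was at 70.9, 289 and 125 CPM, also highest in library 2. All 3 were almost absent from the other classes, at a mean of at most 0.0809 CPM, and passed against each class. Cxcl16 was at 234, 505 and 537 CPM in macrophages, and its next class, fibroblasts, held 67.9, 66.03 and 85.4 CPM, lower by 2.56 ± 0.29 (log2, SE; edgeR adjusted p = 3.00e-06). It had a UMI in 70.3% ± 15.2 of macrophages (SD, n = 3, median depth 10607 UMIs) and in 2.86% ± 0.891 of muscle cells (7262 UMIs).

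The Ccr2 ligand Ccl2 was at 257, 46.5 and 81.5 CPM in macrophages, 4.75 ± 0.75 above fibroblasts (log2, SE; edgeR adjusted p = 8.08e-05), and without library 1 it did not pass against fibroblasts (3.45, adjusted p = 0.0956). Ccl7, also a Ccr2 ligand, was at 24.4, 46.5 and 19.2 CPM against 8.39, 10.8 and 17.4 CPM in fibroblasts, and the difference of 1.38 ± 0.66 did not pass (edgeR adjusted p = 0.102), but did without library 3 (0.0417) and when cells of several gates were given to the largest (0.00905). Fibroblasts nevertheless held 67.1% of the Ccl7 UMIs. The Ccr3 ligand Ccl24 was at 112, 66.4 and 0 CPM and Ccl8 at 66.1, 49.8 and 0 CPM, neither with a UMI in the 26 macrophages of library 3, where a count of 0 allows up to 14.4 CPM.

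Several calls for macrophages rested on few cells. Ccl8 had UMIs in 10 macrophages, with 49 of 99 in 1 cell, and 1 cell held 141 of the 357 Ccl2 UMIs. Cxcl2 was at 37.0, 106 and 9.59 CPM with its UMIs in 6 macrophages, and Ccl5, which attracts T cells, at 23.6, 3.32 and 38.4 CPM in 4 macrophages. The interferon-induced Cxcl10 was at 0, 3.32 and 355 CPM, with 74 of its 75 UMIs in 1 cell. The edgeR calls of Ccl5 (0.0134 against fibroblasts) and Cxcl10 (0.0126) were adjusted p-values of these same sums, and both were lost without library 1, that of Cxcl10 also without library 3.

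Ccl25, known from thymus and gut as the ligand of Ccr9, averaged 21.6 to 31.2 CPM in the 5 classes. Its highest class, macrophages, was not above the second, endothelium (0.36 ± 0.22 on the log2 scale, edgeR adjusted p = 0.339). Its annotated locus on chromosome 8 spans 166100 bases and overlaps several genes, among them Elavl1 on the opposite strand. Ccl27a, known as a skin ligand of Ccr10, was at 22.1, 16.5 and 16.4 CPM in muscle and at 14.4, 11.4 and 12.0 CPM in fibroblasts, a difference of 0.50 ± 0.29 that did not pass (edgeR adjusted p = 0.188). Unlike Ccl25 it was low in endothelium and macrophages, which averaged 1.65 and 1.86 CPM. It overlaps Il11ra1 on the opposite strand and has the near-identical copy Ccl27b, so its reads are uncertain as well.

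The class of highest level was often not the class in which most UMIs were counted, and 67.5% of kept cells were epithelial. By UMIs, epithelial cells led for 8 of the 24 ligands, macrophages for 7, fibroblasts for 5, endothelium for 1 and muscle for 0. The other 3 had the largest share of their UMIs outside these 5 classes, Cxcl2 in the neutrophil gate (43.4%) and Ccl5 and Ccl8 in cells that passed several gates (47.0% and 40.8%). Cxcl16 is the clearest case, with its level highest in macrophages but 59.4% of its UMIs in epithelial cells. Epithelial cells likewise held 84.6% of the Ccl25 UMIs and 58.9% of the Cxcl1 UMIs, the latter 76.3%, 22.6% and 65.9% by library, with 67.2% in muscle cells in library 2. Other ligands had most of their UMIs in the class of their highest level: Ccl21a (97.3% endothelial), Ccl20 and Cxcl17 (both 95.3% epithelial), Cx3cl1 (91.4% epithelial), Ccl24 (86.2% macrophage) and Ccl19 (84.2% fibroblast).

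**Figure D4:**
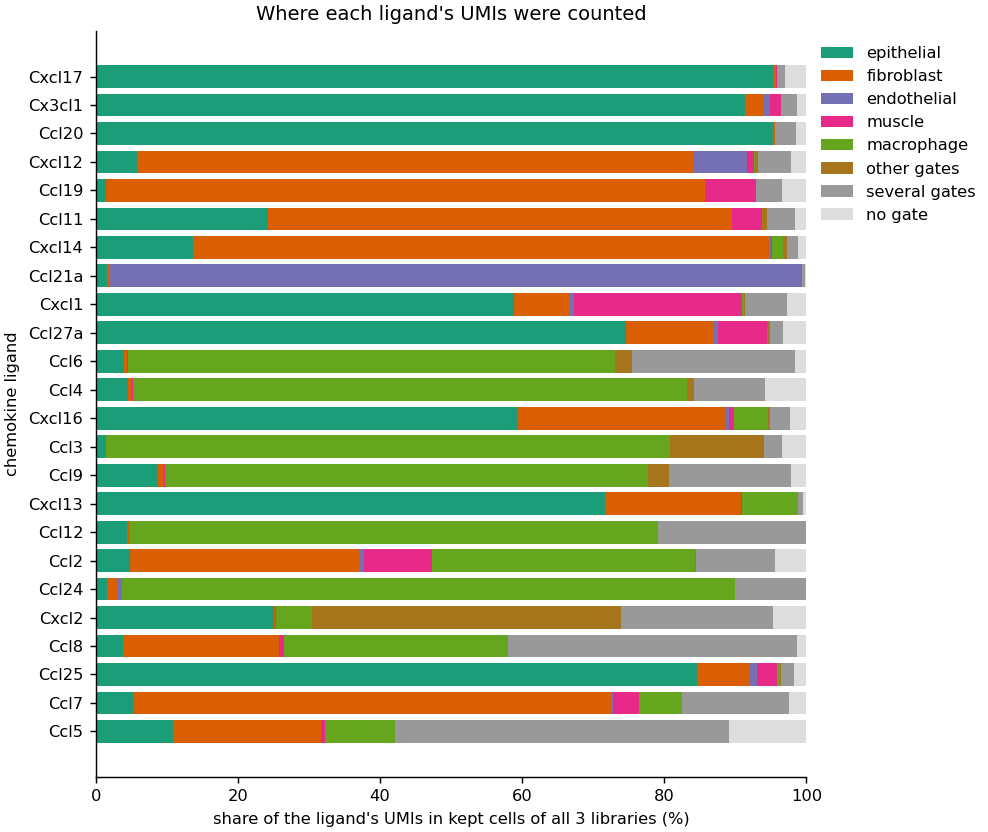
Share of each ligand's UMIs (x axis, %, all kept cells of the 3 libraries) counted in each cell class, 1 bar per ligand. Bars of Cxcl17, Ccl20, Cx3cl1 and Ccl25 are mostly epithelial, those of Cxcl12, Ccl19 and Cxcl14 mostly fibroblast, and 43.4% of the Cxcl2 bar is of the neutrophil gate.

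The receptors these ligands bind were read in the same sums. Of 18 receptor genes, 5 reached 10 CPM in a class in at least 2 libraries and 1 had 0 UMIs. A separated main source was found for 5 of 5 tested, where the share over all genes was the 37.4% given above. A gene could pass the filter on counts through 1 class alone, and outside macrophages Ccr1 and Ccr2 averaged at most 1.36 CPM. The 5 of 5 follows in part from that filter and is no result about receptors. Cxcr4, the receptor of Cxcl12, was at 143, 148 and 145 CPM in muscle cells, above macrophages by 0.95 ± 0.29 (log2, SE; edgeR adjusted p = 0.0130), and Cxcl12 itself was low there. The other 4 were macrophage genes. Of these, Ccr2, the receptor of Ccl2, Ccl7 and Ccl12, was at 840, 279 and 225 CPM and Cx3cr1, the receptor of Cx3cl1, at 239, 362 and 393 CPM. Ccr1, a receptor of Ccl6 and Ccl9, was at 127, 143 and 81.5 CPM.

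Atypical receptors take up chemokines without signalling to migration, and 4 of 5 were named by level. Ackr1 was the only 1 of the 5 with a separated source, endothelium, at 72.7, 197 and 85.0 CPM. Ackr3, the scavenger of Cxcl12, was at 179, 307 and 182 CPM in muscle cells and did not pass against endothelium (edgeR adjusted p = 0.0553). Of 5 shedding and capture genes tested, 2 were separated, Sdc1 in epithelium and Adam17, the protease that cuts Cx3cl1, in macrophages. A separated source was found for 6 of 15 inflammatory induction genes, near the 37.4% of all genes, and for 3 of 18 dissociation genes (in muscle) and 4 of 14 interferon-induced genes (in macrophages), lower shares than that.

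By class of highest mean level, neighbouring ligand genes did not all share a source. On chromosome 11 lie 12 of the 39 ligands and on chromosome 5 another 11. Between Ccl7 and Ccl12, both led by macrophages, lies Ccl11, which was led by fibroblasts. The lead of Ccl7 did not pass against fibroblasts, which held most of its UMIs. The run Ccl5, Ccl9, Ccl6, Ccl3 and Ccl4 (chr11:83416602-83555509) was led by macrophages throughout. On chromosome 4, the fibroblast ligand Ccl19 and the lymphatic ligand Ccl21a are the nearest ligand neighbours of each other. On chromosome 5 (chr5:90907186-91053797), Cxcl5, Cxcl3 and Cxcl15 were led by epithelium, Cxcl1 by muscle and Cxcl2 by macrophages. Of these, only Cxcl15 and Cxcl2 had a separated main source, Cxcl2 with its macrophage UMIs in 6 cells. Most Cxcl1 UMIs lay in epithelial cells.

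The study compared sorted cells with and without Lrig1 RNA at collection, and the ligands were read in the same comparison. A Lrig1 UMI was in 59.6% of epithelial, 43.1% of muscle, 30.6% of fibroblast, 7.09% of endothelial and 3.38% of macrophage cells. The 5427, 4133 and 12067 Lrig1+ cells were deeper, with medians of 15129, 17893 and 14523 UMIs, than the 7795, 3068 and 12052 Lrig1- cells, with 7304, 9765 and 6375.5 UMIs. Class makeup and depth therefore moved with this comparison.

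Over all cells, edgeR called 0 of 30 ligands tested and 0 of 19778 genes (0% called), with 13 ligands and 2678 genes (13.5%) at an unadjusted p under 0.05. This fit left the Lrig1+ and Lrig1- sums of a library unpaired, here and within the classes below. Over all cells their deviations correlated at 0.681 to 0.785, so the 0 holds for the unpaired model only. A fit that blocked on the library called 16 ligands. Of these, 14 were lower in Lrig1+ cells, where 13.9% of genes were lower, and Ccl25 and Cx3cl1 were higher, where 11.1% were. DESeq2 called 8 ligands lower, where it called 3.01% of genes lower. The ligand median was -1.24 on the log2 scale against 0.01 over all genes, and 22 of 30 were lower in all 3 libraries and 2 higher, where 33.6% of genes were lower and 27.6% higher. The 3 ligands furthest down were the macrophage ligands Ccl3, Ccl4 and Ccl6. Ccl4, for instance, differed by -5.59 ± 0.56 (edgeR adjusted p = 0.184, blocked 0.00446), in a comparison in which macrophages made up 0.0166% to 0.0484% of Lrig1+ cells and 0.199% to 1.10% of Lrig1- cells.

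Within the epithelial class the ligand median was -0.58 against -0.01 over all genes. Each ligand weighs alike in that median, also Ccl6, Ccl9 and Ccl21a, which were at most 1.36 CPM in either group of any library. Among ligands of higher level, Cxcl17 (-0.03), Ccl25 (0.14) and Cx3cl1 (0.16) lay near 0, and Ccl20 (-0.64) and Cxcl16 (-0.4) were lower. EdgeR called 0 of 22 ligands and 0 of 18436 genes (0% called), with 4 ligands and 597 genes (3.24%) at an unadjusted p under 0.05, and DESeq2 called 0 ligands and 0.353% of genes. With the library as a block, 3 ligands were called, all lower in Lrig1+ cells, where 2.52% of genes were lower. Cxcl16 was at 13.6, 11.9 and 14.1 CPM in Lrig1+ cells and at 19.1, 14.2 and 18.1 CPM in Lrig1- cells, lower in 3 of 3 libraries (blocked log2 difference -0.39 ± 0.06, edgeR adjusted p = 0.0266). Ccl28 gave -0.64 ± 0.10 (blocked, adjusted p = 0.0254) and Cxcl14 -2.67 ± 0.28 (blocked, adjusted p = 0.0109), also lower in 3 of 3 libraries. Cxcl14 was low in epithelium, at 0.545, 0.173 and 0.177 CPM in Lrig1+ cells against 4.78, 0.582 and 1.03 CPM. In library 2 these levels came from 12 and 15 UMIs. Cx3cl1 was higher in 3 of 3 libraries, at 40.8, 36.4 and 40.6 CPM against 35.6, 29.9 and 38.7 CPM, but did not pass in either fit (edgeR blocked adjusted p = 0.116). Cxcl17, at 173, 184 and 52.4 CPM against 163, 191 and 57.2 CPM, had no shared direction.

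Within fibroblasts the ligand median was -0.09 against -0.01 over all genes. EdgeR called 0 of 16 ligands and 0 of 13896 genes (0% called), with 1 ligand and 211 genes (1.52%) at an unadjusted p under 0.05, and DESeq2 called 0 ligands and 0.0216% of genes. The blocked fit called Cxcl13 as lower, where it called 0.137% of genes lower. Cxcl13 was at 17.9, 5.41 and 3.52 CPM in Lrig1+ fibroblasts and at 108, 84.2 and 7.47 CPM in Lrig1- fibroblasts, lower in 3 of 3 libraries by 2.57 ± 0.25 (log2, SE; edgeR blocked adjusted p = 0.00984). The Lrig1+ values came from 133, 9 and 25 UMIs. Few cells carried it: in library 2 a UMI was in 0.31% of the 321 fibroblasts with a Hhip, Wnt16 or Col23a1 UMI and in 7.69% of the 65 without. Cxcl12 was at 731, 1136 and 1073 CPM against 769, 503 and 943 CPM, higher in libraries 2 and 3 and lower in library 1, and passed in neither fit.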

How the data were processed

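Dissociated larynges of 3 pools of 10 mice were sorted for tdTomato, made into libraries with droplet 3' chemistry and sequenced. Per the submitters' processing notes, the authors aligned the reads to mm39 (GRCm39) with Cell Ranger 8.0.1. The deposited files hold raw UMI counts per gene and barcode, without normalization. Samples were the 3 libraries, all of 1 condition, and the chemokine members and all gene lists were chosen with earlier results of these data known. Ligands at 10 CPM in 1 class in 2 libraries were described singly.

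Kept barcodes had 500 to 8000 genes, 1000 to 40000 UMIs and a mitochondrial share of no more than 8%, and doublet-like barcodes were removed by their share of simulated doublets among 30 neighbours (0.4% per 1000 barcodes). The methods word these limits with genes and UMIs exchanged, which keeps far fewer cells, and this reading was an alternative. UMIs were summed per library and class in sums of at least 10 cells and tested with edgeR 4.0.16 in R 4.3.3 (TMM scaling, filterByExpr, quasi-likelihood test, adjusted p under 0.05). DESeq2, which the study used on sums of its groups in another version, was an alternative, run here as version 1.42.0. The remaining alternatives were the library as a block, no TMM, no filter, each library left out, doublets kept, other gates and other sums. Shares were repeated on cells thinned to 5000 and 2000 UMIs. The scripts were tested on simulated data.

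Cells of the same library share a pool of mice, which pairs the sums by construction. The correlation of same-library deviations from the group means, over genes, was 0.364 to 0.892 between Lrig1+ and Lrig1- sums and 0.177 to 0.482 between class or sub-gate sums. Count precision follows depth, 147898790 to 413632222 UMIs per library. Wilson intervals (95%) cover counting error only. Values of some genes of the fixed lists are not reported here.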

Additional observations from a re-analysis of the deposited data

Results flagged for a closer look

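Cxcl12 was also counted in cells passing the mural gate (pericytes and vascular smooth muscle), which are in none of the 5 classes compared. Its level there was 337.6, 71.97 and 75.17 CPM in libraries 1 to 3, from 66, 10 and 43 cells, above the 2.60 to 8.04 CPM of epithelial cells in every library. No control samples stand beside these values, and the levels were not tested.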

How the results depend on the processing

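Of 17 ligands with a separated main source, 10 held it in all 12 alternatives (Ccl3, Ccl4, Ccl6, Ccl9, Ccl12, Ccl19, Ccl21a, Cxcl2, Cxcl16 and Cxcl17). Leaving out 1 library in turn gave 11 to 19 ligands and 2800 to 5581 genes in place of 17 and 5944. The methods' wording of the quality limits left too few sums for that test and gave no value. Ccl11 was lost without library 1 or 2, Ccl20 and Cxcl10 without 1 or 3, Ccl2, Ccl5 and Cxcl15 without 1, and Ccl8 without 1 and under a looser gate. Between sub-gates, 5450 genes were called, 1797 under the methods' wording and 2801 to 5272 with 1 library left out. Between Lrig1+ and Lrig1- cells, where edgeR called 0, the replicate block called 16 ligands and 4952 genes in all cells, 3 and 886 in epithelium, and 1 and 31 in fibroblasts, and DESeq2 called 8 ligands and 851 genes in all cells and 65 and 3 genes in the 2 classes. Setting Lrig1+ at 2 UMIs called 2 genes. Apart from Cxcl12 against endothelium, the block changed no ligand's main source.

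The direction of Cxcl13 in macrophages against fibroblasts turned without library 1, the values with 1 library left out running from -2.93 to 3.44. Ccl28 in basal against squamous cells turned under the methods' wording (4.63) and without library 3, where the squamous cells left had 0 UMIs (range -4.01 to 7.20). In Lrig1+ against Lrig1- epithelium, Cxcl17 turned without library 2 (range -0.086 to 0.014) and Ccl20 under the methods' wording (0.37). In fibroblasts, the same wording turned Cxcl12 (-0.34), Ccl19 (-0.23), Ccl11 (0.24) and Cxcl14 (1.32). None of these turned values passed the test, and the cause was not tested. The class with the largest share of positive cells was that of highest level for 22 of 24 ligands, and for 23 after thinning to 5000 or 2000 UMIs. Macrophage levels rest on 87, 35 and 26 cells, and endothelial levels on 481, 27 and 42.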

Other observations

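Neutrophils, the cells that Cxcl1 and Cxcl2 attract, were themselves rich in Cxcl2. The neutrophil gate took 6, 1 and 4 cells, in which Cxcl2 stood at 815, 17470 and 24980 CPM, and these 11 cells held 43.4% of all Cxcl2 UMIs of the kept cells. Their number allows no statement on neutrophils of the larynx.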
